A study of Mus musculus with 2 samples.

Results

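Among the fibroblasts of the lung lay a small group of cells that carried Cox4i2 together with genes of vascular pericytes, although the deposited annotation placed them in other classes. There were 63 such cells among 14229 kept cells of 15986 deposited. The high fat diet (HFD) library held 31 of 6089 kept cells, or 0.509% (95% interval 0.346 to 0.722%), and the normal chow (NC) library held 32 of 8140, or 0.393% (0.269 to 0.555%). The ratio of the shares, HFD over NC, was 1.30 (0.764 to 2.19), and its interval holds 1. With shallower cells dropped and the rest thinned to 5000 counts, the criteria were met by 22 of 5493 cells in HFD and by 12 of 6363 in NC, a ratio of 2.12 (1.01 to 4.71), so the reading depends on depth. The cells were selected on measured values. A cell was chosen when it was outside the class named pericytes, had a nonzero value of Cox4i2, and had nonzero values of at least 3 of Gucy1a1, Gucy1b1, Pdzd2, Postn, Pde5a, Itga1 and Pdgfrb. Here they are called pericyte-like cells. Their expression chose them, so every comparison with other cells is a description.

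The series compared C57Bl/6J mice fed HFD for 16 weeks with mice fed NC for as long, by sequencing the RNA of single cells labelled as fibroblastic stroma of the lung. Each diet had 1 library, made with a 10x Genomics 3′ kit. The labels used here gave no number of mice per library and no sort or gate. A diet with 1 library has no replicate error, so no test was made between the diets, and all intervals cover counting error only. The deposited class column names myofibroblasts, pericytes, and fibroblasts called after Pi16, Gas6 or Asc1.

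Pericytes are mural cells that wrap capillaries inside the basement membrane that they share with the endothelium. They answer to platelet-derived growth factor from endothelial cells through the receptor Pdgfrb, and to Notch ligands through Notch3. In the lung they are known for Cox4i2 and Ndufa4l2, alternative members of the respiratory chain, and for Higd1b, a small mitochondrial inner membrane protein. Nitric oxide reaches soluble guanylate cyclase in these cells, an enzyme built from Gucy1a1 and Gucy1b1, and Pde5a breaks down the cGMP it makes. Smooth muscle cells of larger vessels carry a contractile apparatus that capillary pericytes largely lack.

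The number of further genes per cell is given as a description, since these genes chose the cells. Of the 68 HFD and 66 NC cells with Cox4i2 outside the class labelled pericytes, 25 and 23 had all 7 further genes. Another 23 HFD and 19 NC cells had none of them. Just inside the minimum, with 3 genes, were 3 HFD and 2 NC cells with median totals of 11455 and 8244.5 counts. Just outside it, with 2 genes, were 3 HFD and 6 NC cells with median totals of 10523 and 10246 counts. In all, 28 HFD and 28 NC pericyte-like cells had 5 to 7 genes, against 3 HFD and 4 NC cells with 3 or 4. Within the class labelled pericytes, the cells with Cox4i2 spread over all numbers, and 9 of 90 HFD and 1 of 36 NC such cells had all 7.

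**Figure D1:**
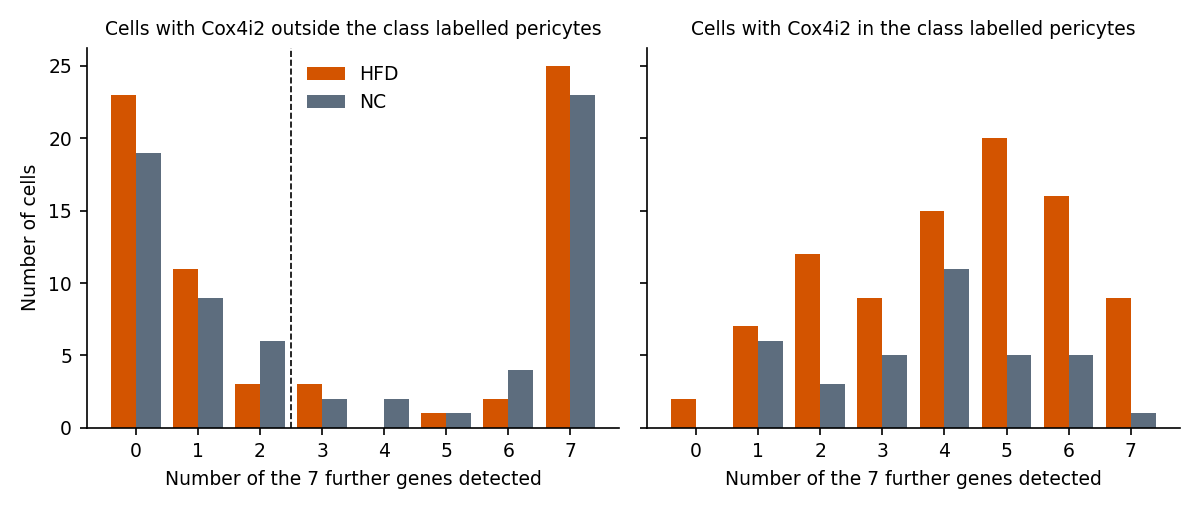
Number of kept cells with Cox4i2 by how many of the 7 further genes were detected, outside the class labelled pericytes (left) and in it (right), for HFD and NC. The dashed line marks the minimum of 3. Outside the class, 25 HFD and 23 NC cells had all 7. The 7 genes chose the cells, so the numbers are a description.

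The levels that the choice rests on are given as a description, in CPM, the summed counts of a cell group scaled to an equal total. Cox4i2 stood at 1616 CPM in HFD and 1842 CPM in NC pericyte-like cells, against 25.8 and 23.8 CPM in myofibroblasts and 33.0 and 36.1 CPM in the class labelled pericytes. Postn, a matrix protein, stood at 2017 and 1838 CPM, against 11.2 and 2.44 CPM in myofibroblasts and 291 and 239 CPM in the class labelled pericytes. Gucy1b1 stood at 1896 and 1714 CPM, against 54.9 and 42.2 CPM in myofibroblasts and 190.2 and 171 CPM in the class labelled pericytes. Pdgfrb stood at 1112 and 859 CPM, against 47.0 and 43.7 CPM in myofibroblasts and 91.1 and 66.0 CPM in the class labelled pericytes. Pdzd2, Gucy1a1, Pde5a and Itga1 lay between 1461 and 2970.3 CPM in the pericyte-like cells of both libraries. Outside the class labelled pericytes, 0.564% of the HFD cells and 0.406% of the NC cells were pericyte-like. They held 80.7% and 77.4% of the Cox4i2 counts found there.

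The class column put 20 HFD and 20 NC pericyte-like cells among the myofibroblasts, which holds 510 kept HFD and 667 kept NC cells with them. The rest lay among Gas6 fibroblasts (5 and 4 cells), Asc1 fibroblasts (4 and 7) and Pi16 fibroblasts (2 and 1). A finer deposited column scattered the 20 myofibroblast-class cells again, and only 5 HFD and 8 NC of them kept the name myofibroblasts there. Among the other myofibroblasts, 480 of 490 HFD and 642 of 647 NC cells kept it. An older label column in the NC table named 24 cells PDGFRb hi fibroblasts, and 21 of these were pericyte-like cells. The other 3 had no Cox4i2. Of the 48 HFD cells with that older label, 1 was pericyte-like, but the older columns there do not describe the same rows. Across HFD cells the older and newer gene numbers had a Spearman correlation of 0.0467, against 0.9998 across NC cells.

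Depth and mitochondrial counts of the pericyte-like cells lay near those of myofibroblasts, and ribosomal counts lay lower. Their median totals were 8162 counts in HFD and 4864 in NC, against 6620.5 and 4829 in myofibroblasts and 19714.5 and 15459.5 in the class labelled pericytes. Mitochondrial counts made up a median of 3.37% and 3.49%, against 3.88% and 3.89% in myofibroblasts. Ribosomal counts made up 3.38% and 3.41%, against 8.63% and 7.05% in myofibroblasts and 7.94% and 7.59% in the class labelled pericytes. A few deep cells weigh on the sums, since 4 HFD cells held 137398 of 347099 counts and 2 NC cells held 47383 of 218763. The libraries shared 17 cell barcodes, and none belonged to a pericyte-like cell.

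Most markers checked here went with the label, and a few did not. Of 17 pericyte markers outside the choosing genes, a pericyte-like cell had a median of 8 in HFD (range 1 to 11) and 6 in NC (3 to 10). Myofibroblasts had a median of 0 and 1, and cells of the class labelled pericytes had 4 and 3 despite their greater depth. The 17 markers summed to 5154 and 4562 CPM, against 324 and 478 CPM in myofibroblasts and 1189 and 810.2 CPM in the class labelled pericytes. For the 13 smooth muscle markers the pericyte-like cells had a median of 3 in HFD (range 1 to 6) and 3 in NC (0 to 11). Myofibroblasts had the same medians of 3 and 3, and the class labelled pericytes had 13 and 12. The low number of smooth muscle markers is thus shared with myofibroblasts. The markers that go against the label are Rgs5, Abcc9 and Kcnj8. Rgs5, a regulator of G protein signalling, had 0 counts in both libraries, against 9.40 and 10.1 CPM in myofibroblasts and 123 and 46.5 CPM in the class labelled pericytes. Abcc9 and Kcnj8, the subunits of the KATP channel, stood at 95.1 and 22.9 CPM and at 28.8 and 22.9 CPM, against 109 and 141 CPM of Abcc9 and 95.1 and 206 CPM of Kcnj8 in myofibroblasts.

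**Figure D2:**
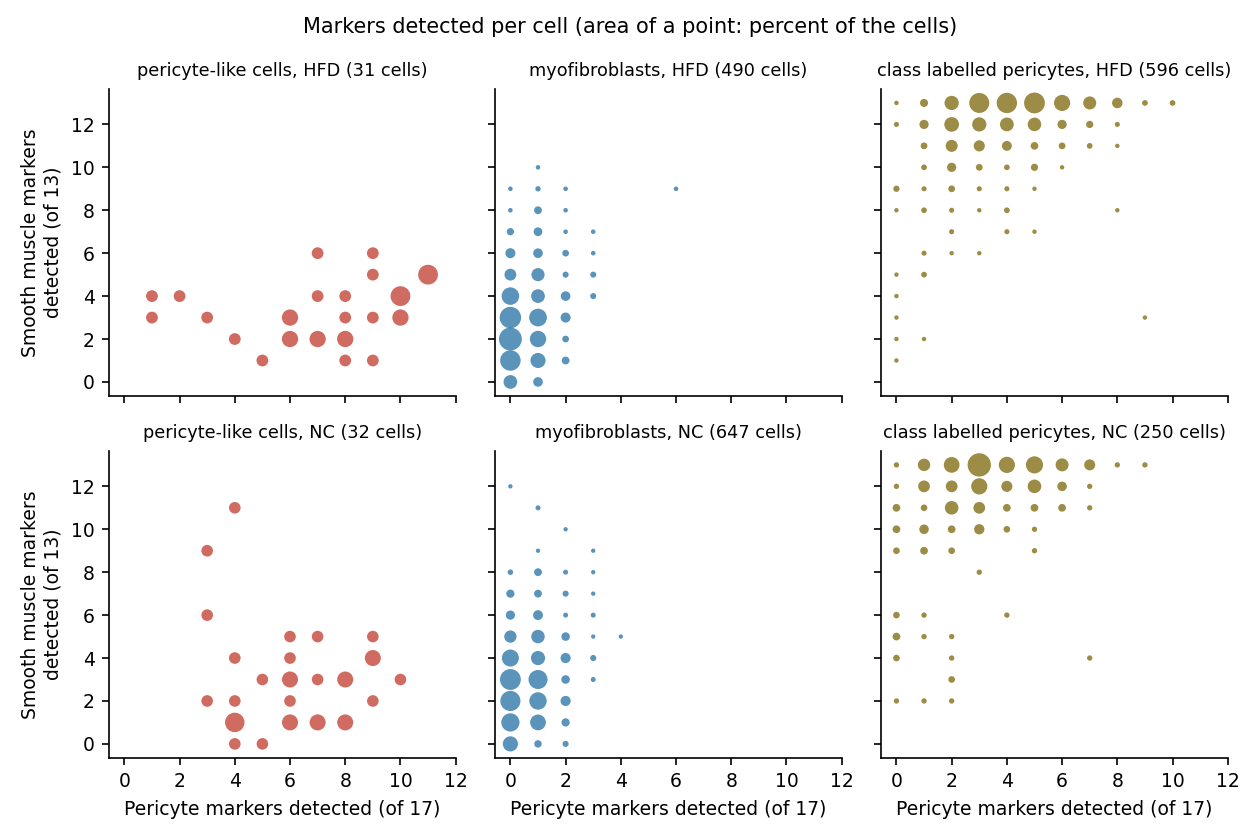
Pericyte markers detected per cell (x axis, of 17) against smooth muscle markers detected per cell (y axis, of 13) for each cell group, HFD above and NC below; the area of a point is the percent of the group's cells. Pericyte-like cells reach 11 pericyte markers in HFD and 10 in NC. They have at most 6 smooth muscle markers in HFD and 11 in NC. The class labelled pericytes gathers near all 13 smooth muscle markers.

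The cells with 3 or 4 of the choosing genes differed from the others. The 3 such HFD cells had 1 to 2 pericyte markers, against 3 to 11 in the 28 cells with more genes. They had 0 counts of Higd1b, Ndufa4l2, Notch3 and Spp1. The 4 such NC cells had 3 to 8 pericyte markers, against 3 to 10. In a graph of the 15 nearest cells of either library, built without the 8 choosing genes, 26 of 28 HFD and 26 of 28 NC cells with 5 to 7 genes had 8 or more pericyte-like neighbours. None of the 3 HFD and 4 NC cells with 3 or 4 genes had. For cells with 5 to 7 genes, the median number of neighbours from the other library was 9 of 15 in HFD and 6 of 15 in NC. These neighbours were counted whether pericyte-like or not. Outside the group, 2 HFD cells of the class labelled pericytes and 5 NC cells without Cox4i2 had 8 or more pericyte-like neighbours.

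Membership of a deposited class also went with a difference inside the group. In cells of the myofibroblast class, Higd1b stood at 1585 CPM in HFD and 962 CPM in NC, against 693 and 511 CPM in pericyte-like cells of the other classes. Ndufa4l2 stood at 1557 and 1366 CPM, against 269 and 440.0 CPM. The 10 alveolar fibroblast markers went the other way, summing to 949 and 929 CPM in cells of the myofibroblast class, against 8610 and 5061 CPM in the others. Inmt, an indole methyltransferase of alveolar fibroblasts, stood at 88.8 and 197 CPM, against 3543 and 2287 CPM. The cells outside the myofibroblast class were deeper, with median totals of 14060 and 10471 counts against 6479 and 4213.5. Whether these cells hold RNA of other fibroblasts was not tested.

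The first comparison asked how the pericyte-like cells differ from the myofibroblasts, the class that holds most of them. A gene was called when its level was at least 2-fold higher, or 2-fold lower, in both libraries. Of 2378 genes with enough counts, 114 were higher (4.79%) and 168 lower (7.06%), with the 8 choosing genes left out. The median gene had a log2 ratio of −0.17 in HFD and −0.19 in NC. Scaling by TMM, which assumes that most genes do not differ, moved that median to −0.63 and −0.65, and 62 genes were then higher and 456 lower. Median of ratios scaling gave 92 higher and 224 lower. With a lower limit on counts, 443 of 6278 genes were higher and 426 lower.

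Mitochondrial genes known from pericytes were among the higher genes. Higd1b stood at 1069 CPM in HFD and 699 CPM in NC pericyte-like cells, against 3.82 and 0 CPM in myofibroblasts. The ratio was 280 in HFD (87.3 to 1578) and at least 763 in NC, computed against 3 counts. It was detected in 26 of 31 HFD and 23 of 32 NC cells. With every cell thinned to 2000 counts, Higd1b was found in 67.8% and 61.5% of pericyte-like cells, against 0.203% and 0% of myofibroblasts, with median depths of 8162 and 4864 counts against 6620.5 and 4829. Ndufa4l2 stood at 812 and 827 CPM, against 2.94 and 2.14 CPM, a ratio of 277 (74.4 to 2234) in HFD and 387 (94.0 to 4079) in NC. The 2 genes were detected together in 20 HFD and 16 NC cells. Cox4i1, the usual form of the subunit that Cox4i2 replaces, stood at 400.5 and 384 CPM, against 522 and 632 CPM in myofibroblasts. Of 19 tested genes of cytochrome oxidase and hypoxia isoforms, 2 were higher and 2 lower, with median log2 ratios of −0.45 in HFD and −0.49 in NC. Over all 2378 tested genes, 4.79% were higher and 7.06% lower.

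Other pericyte genes had too few counts for the comparison with myofibroblasts, so their levels stand alone. Vtn was chosen after its values were seen. Notch3, the mural Notch receptor, stood at 369 CPM in HFD and 530.3 CPM in NC pericyte-like cells, against 3.82 and 4.89 CPM in myofibroblasts. Trpc6, a calcium-permeable channel, stood at 228 and 334 CPM, against 0 and 0.611 CPM. Vtn, the adhesion protein vitronectin, stood at 230.5 and 197 CPM, against 0 CPM in both libraries. Agtr1a, the angiotensin II receptor, stood at 179 and 155 CPM, against 0.881 and 0 CPM. All 4 had their higher level in the pericyte-like cells of both libraries. Of 8 tested pericyte markers outside the choosing genes, 5 were higher and 1 lower than in myofibroblasts, with median log2 ratios of 2.12 and 2.14. Mfge8, which bridges cells to integrins, stood at 1158 and 1125 CPM, against 151 and 132 CPM. The lower gene was Kcnj8, and 8 of the 35 listed markers in the tables passed the filter on low counts. With the filter set at 10 effective counts (counts divided by a factor for their spread) in place of 30, 19 markers were tested, of which 15 were higher and 1 lower. Of all 6278 genes tested at that filter, 7.06% were higher and 6.79% lower. Markers near 0 CPM in myofibroblasts, such as Trpc6 and Vtn, could pass a filter only through the pericyte-like cells. For such markers the direction was set in advance, so the counts of markers are a description.

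**Figure D3:**
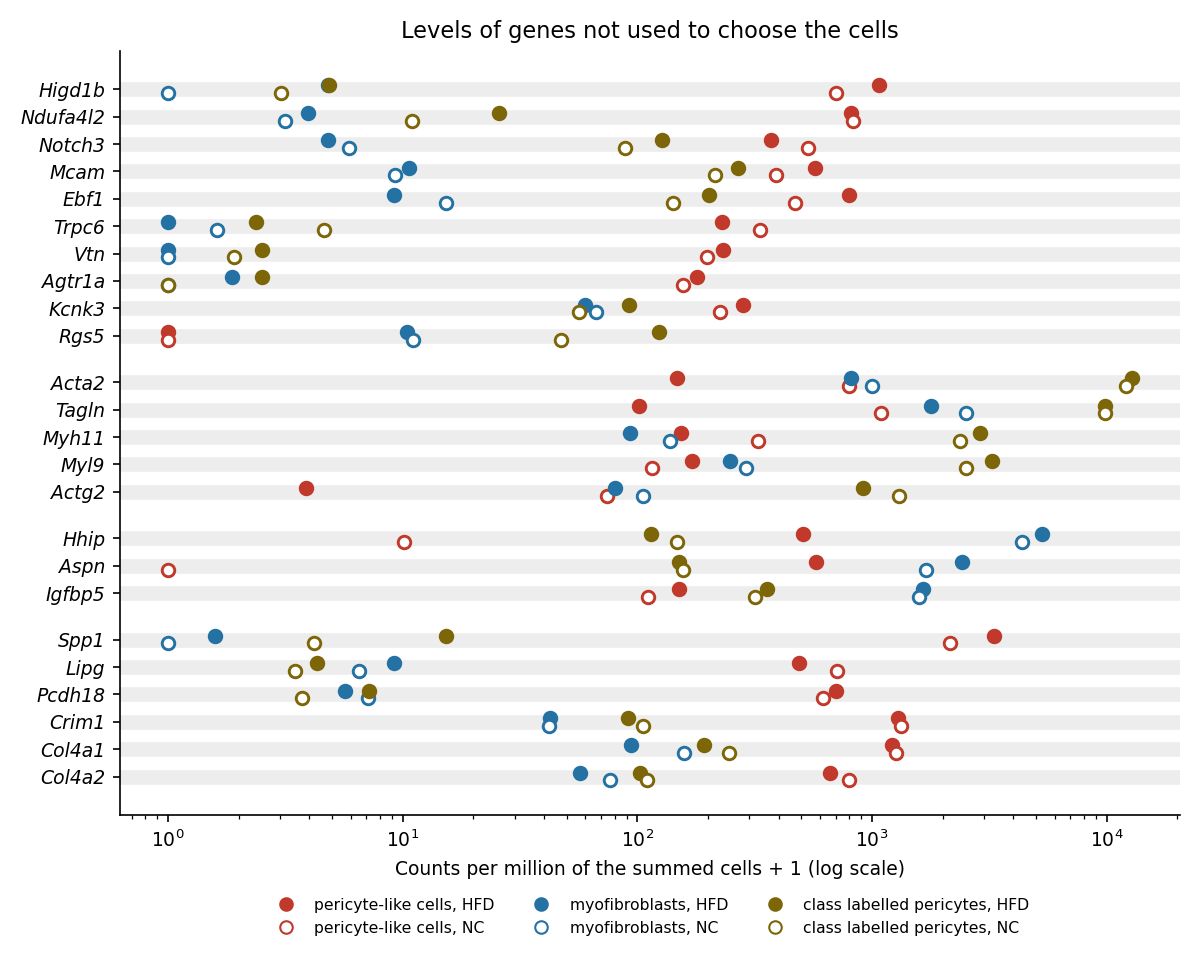
Levels (CPM of the summed cells plus 1, log scale) of genes not used to choose the cells, in pericyte-like cells, myofibroblasts and the class labelled pericytes, HFD filled and NC open. Higd1b, Ndufa4l2, Vtn and Spp1 are highest in the pericyte-like cells in both libraries, and Rgs5 is at 0 in them.

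Spp1, which encodes the secreted phosphoprotein osteopontin, ranked first among the higher named genes. It stood at 3325 CPM in HFD and 2158 CPM in NC pericyte-like cells, against 0.587 and 0 CPM in myofibroblasts, where 2 counts were found in HFD. In NC the pericyte-like cells were at least 2354-fold higher, computed against 3 counts. It was detected in 18 of 31 HFD and 23 of 32 NC cells, with up to 203 and 90 counts in a cell. Of all Spp1 counts outside the class labelled pericytes, 97.5% in HFD and 79.9% in NC lay in these cells. The HFD over NC ratio of Spp1 over all those cells was 2.27, and without the pericyte-like cells it was 0.277.

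Surface and secreted genes followed. Pcdh18, a protocadherin, stood at 703 CPM in HFD and 617 CPM in NC, against 4.70 and 6.11 CPM in myofibroblasts, a ratio of 150 (50.5 to 680) and 101 (39.3 to 330). Lipg, the endothelial lipase, stood at 487 and 709 CPM, against 8.22 and 5.50 CPM. Ifitm1, an interferon-induced membrane protein, stood at 1201 and 1518 CPM, against 14.4 and 13.4 CPM. These genes were far lower in both reference classes than in the pericyte-like cells. Crim1, a transmembrane protein that binds growth factors, stood at 1285 and 1326 CPM, against 41.4 and 40.9 CPM. Rgcc, a regulator of the cell cycle, stood at 576 and 571 CPM, against 24.4 and 34.5 CPM. Gng11, a G protein subunit, stood at 1354 and 909.7 CPM, against 119 and 90.1 CPM. At 2000 counts per cell, it was found in 72.6% and 65.4% of pericyte-like cells. The other fibroblasts, of the Asc1, Gas6 and Pi16 classes, had it in 55.5% and 41.2%. Hsd11b1, which makes active glucocorticoid, stood at 634 and 823 CPM, against 10.9 and 24.1 CPM, but the other fibroblasts had 835 and 778 CPM. Npnt, a basement membrane ligand of an alveolar integrin, stood at 971 and 704 CPM, against 47.6 and 42.8 CPM, and the other fibroblasts had 1369 and 1117 CPM.

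Basement membrane genes were a group with calls in 1 direction. Of 11 tested, 6 were higher and 0 lower than in myofibroblasts, with median log2 ratios of 1.43 in HFD and 1.01 in NC. The shares over all 2378 tested genes were 4.79% higher and 7.06% lower. Col4a1 and Col4a2 encode the chains of type IV collagen, the network of every basement membrane. They lie head to head, and their promoters overlap. The windows below run from 250 bases before to 50 after each RefSeq transcript start on GRCm38.p6, at chr8:11312777-11313076 on the minus strand for Col4a1 and chr8:11312555-11312854 on the plus strand for Col4a2. They are printed since both genes were higher together, with the 78 bases that the 2 windows share in capitals, read on opposite strands.
Col4a1: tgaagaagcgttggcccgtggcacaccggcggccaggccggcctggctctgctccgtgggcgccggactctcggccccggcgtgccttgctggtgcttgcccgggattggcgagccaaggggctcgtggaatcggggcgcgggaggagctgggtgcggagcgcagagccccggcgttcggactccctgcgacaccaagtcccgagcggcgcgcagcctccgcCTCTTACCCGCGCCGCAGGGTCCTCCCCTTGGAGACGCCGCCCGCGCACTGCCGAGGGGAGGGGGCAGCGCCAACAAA
Col4a2: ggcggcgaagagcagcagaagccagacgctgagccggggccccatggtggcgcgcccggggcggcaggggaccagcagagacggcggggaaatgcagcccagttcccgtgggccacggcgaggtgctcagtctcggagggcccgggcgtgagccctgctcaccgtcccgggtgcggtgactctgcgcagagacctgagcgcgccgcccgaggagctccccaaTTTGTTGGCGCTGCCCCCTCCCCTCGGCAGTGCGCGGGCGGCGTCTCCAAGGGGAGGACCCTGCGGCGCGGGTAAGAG
The transcript starts lie 21 bases apart. G and C make up 74.0% of the Col4a1 window and 73.7% of the Col4a2 window, against a median of 52.7% over 32851 promoters of the same length.

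Both collagen genes were higher in the pericyte-like cells, in both libraries and against both classes. Col4a1 stood at 1216 CPM in HFD and 1271 CPM in NC, against 92.8 and 158 CPM in myofibroblasts, a ratio of 13.1 (9.39 to 18.4) and 8.06 (5.94 to 10.9). Col4a2 stood at 659.7 and 800.0 CPM, against 55.8 and 75.8 CPM, a ratio of 11.8 (7.58 to 18.5) and 10.6 (7.01 to 15.8). The class labelled pericytes held 192 and 244 CPM of Col4a1, so that the pericyte-like cells were 6.33-fold and 5.20-fold higher. Col4a1 was detected in 27 of 31 HFD and 29 of 32 NC cells, with a median of 11 and 9 counts in a cell. Of 13 basement membrane genes tested against the class labelled pericytes, these were the 2 higher ones, and 2 others were lower. Sparc, which binds collagen IV, stood at 2391 and 1751 CPM, against 390.3 and 557 CPM in myofibroblasts.

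Genes of adhesion moved in the same direction against myofibroblasts. Of 13 tested integrin and dystrophin complex genes, 7 were higher and 1 lower, with median log2 ratios of 1.15 and 1.33. The shares over all 2378 tested genes were 4.79% higher and 7.06% lower. Itgb1, the common beta subunit, stood at 818 CPM in HFD and 827 CPM in NC, against 284 and 329 CPM. Lims1, an adaptor of integrin-linked kinase, stood at 547 and 517 CPM, against 54.9 and 73.6 CPM. Tns1, the focal adhesion protein tensin, stood at 507 and 699 CPM, against 135 and 109.7 CPM. Vcl, the actin linker vinculin, stood at 259 and 361 CPM, against 103 and 107 CPM. All 4 passed the 2-fold limit in both libraries. Against the class labelled pericytes, 1 of 24 tested genes of this list was higher, namely Lims1, and 9 were lower.

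Most tested genes of duct myofibroblasts were lower than in myofibroblasts, the class they mark and through which they could pass the filter. Of 14 tested, 0 were higher and 11 lower, with median log2 ratios of −2.49 in HFD and −3.20 in NC. With the filter at 10 effective counts, 1 of 16 was higher, Pdgfra, and 11 were lower. Of 8 tested against the class labelled pericytes, Enpp2 and Pdgfra were higher and 3 lower. Hhip, which binds hedgehog ligands, stood at 507 and 9.14 CPM, against 5286 and 4367 CPM in myofibroblasts, and was found in 5 HFD cells and 1 NC cell. Igfbp5, a binding protein of insulin-like growth factors, stood at 149.8 and 109.7 CPM, against 1645 and 1581 CPM. Enpp2, which makes lysophosphatidic acid, stood at 346 and 457 CPM, against 2022 and 1844 CPM. These are genes of the class that holds most of the pericyte-like cells. Further genes named for their low ratio were Cyp2e1, Gja1 and Sema3c. Cyp2e1, a cytochrome P450, had 8.64 and 4.57 CPM, against 542 and 386 CPM. Gja1, a connexin of gap junctions, had 17.3 and 13.7 CPM, against 353 and 267 CPM. Sema3c, a secreted semaphorin, had 0 CPM in both, against 177 and 136 CPM. Pnmt, Tcap, Penk, Ldhb, Fgfr2, Spock2 and Pdzrn3, the rest named by rank, each had 0 to 11.5 CPM in the pericyte-like cells, against 57.1 to 428 CPM in myofibroblasts.

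**Figure D4:**
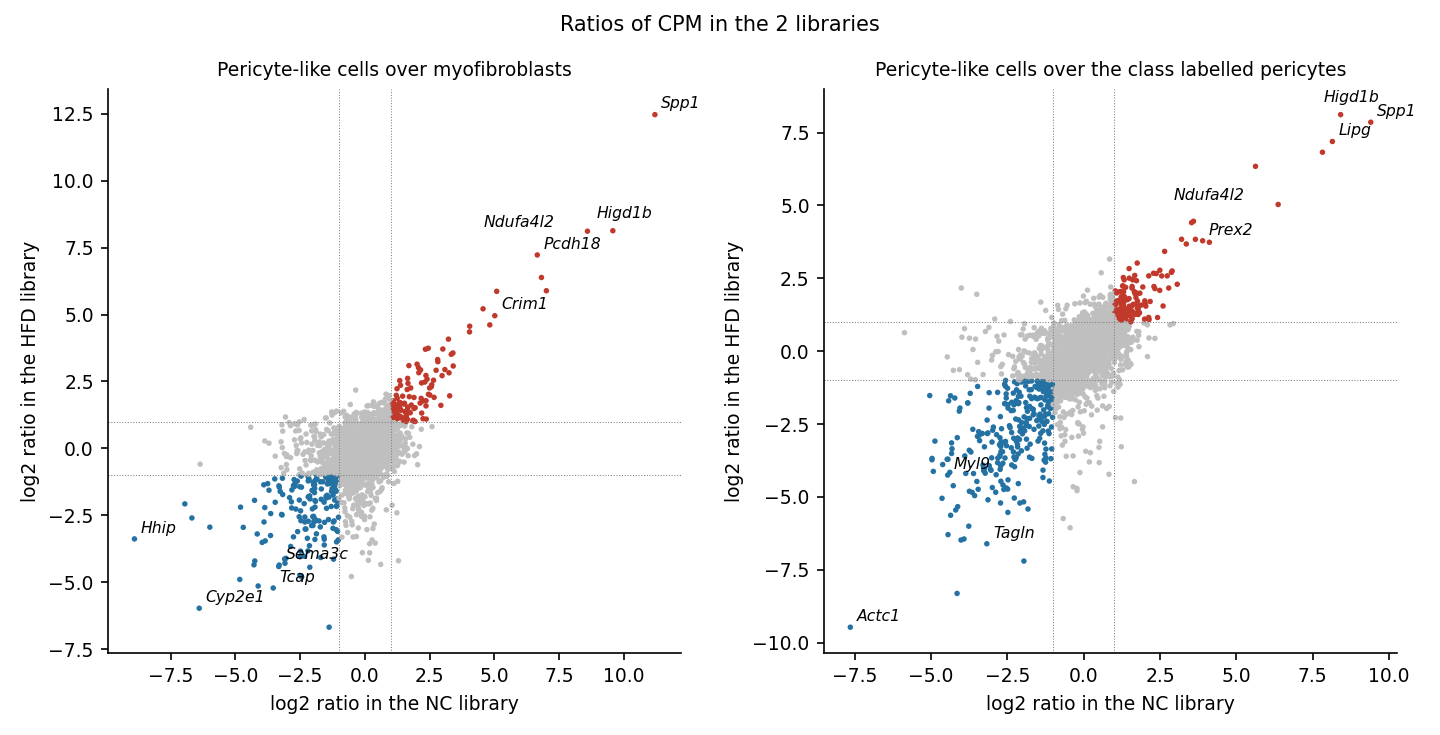
Log2 ratio of CPM in the NC library (x axis) and in the HFD library (y axis) for tested genes, pericyte-like cells over myofibroblasts (left) and over the class labelled pericytes (right), with a level of 0 set at 3 counts. Genes at least 2-fold higher (red; 114 left, 141 right) or lower (blue; 168 left, 287 right) in both libraries lie outside the dotted lines.

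The second comparison set the pericyte-like cells against the class labelled pericytes. Of 2409 tested genes, 141 were higher (5.85%) and 287 lower (11.9%), and the median log2 ratio was −0.22 in HFD and −0.24 in NC. TMM scaling moved the median to −0.85 and −0.84 and gave 43 higher and 749 lower, and median of ratios scaling gave 77 and 445. With the filter at 10 effective counts, 794 of 8090 genes were higher and 525 lower. The pericyte-like cells had more of the pericyte markers and far less of the contractile apparatus.

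Most contractile genes were lower. Of 24 tested smooth muscle genes, 0 were higher and 20 lower, with median log2 ratios of −3.09 and −2.79. Over all 2409 tested genes, 5.85% were higher and 11.9% lower. The smooth muscle genes are high in the class labelled pericytes, through which they could pass the filter. Against myofibroblasts, 3 of 18 tested smooth muscle genes were higher and 2 lower, with median log2 ratios of −0.37 and −0.31. There, 4.79% of all tested genes were higher and 7.06% lower. Actc1, a striated muscle actin, stood at 2.88 CPM in HFD and 13.7 CPM in NC, against 2039 and 2748 CPM in the class labelled pericytes. Myl9, a myosin regulatory light chain, stood at 170.0 and 114 CPM, against 3233 and 2507 CPM. Acta2, smooth muscle actin, stood at 147 and 800.0 CPM, against 12769 and 12126 CPM. In NC, 68.0% of the Acta2 counts lay in 1 cell, and the 4 cells with 3 or 4 of the choosing genes held 168 of 175 counts. In the 28 cells with 5 to 7 genes, Acta2 stood at 135 CPM in HFD and 45.2 CPM in NC. It was found in 9 of 31 HFD and 7 of 32 NC pericyte-like cells.

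Not every contractile gene was low. Ppp1r14a, an inhibitor of myosin phosphatase, stood at 1792 and 1417 CPM in pericyte-like cells, against 1358 and 1085 CPM in the class labelled pericytes and 212 and 133 CPM in myofibroblasts. Against the class labelled pericytes it did not pass the 2-fold limit. At 2000 counts per cell, it was found in 80.9% and 82.6% of pericyte-like cells and in 66.1% and 56.4% of the other fibroblasts. Cald1, which binds actin, stood at 743 and 887 CPM, lower than the 2122 and 1791 CPM of the class labelled pericytes. Against the myofibroblast level of 236 and 312 CPM it was higher, by 3.15-fold (2.27 to 4.32) and 2.84-fold (2.05 to 3.87).

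Of 12 tested pericyte markers, 7 were higher and 0 lower than in the class labelled pericytes, with median log2 ratios of 1.58 and 1.88. Higd1b stood 277-fold (145 to 589) and 343-fold (94.6 to 2451) higher, since that class had 3.86 and 2.04 CPM. Ndufa4l2 was 32.7-fold (22.7 to 47.2) and 82.9-fold (42.3 to 177) higher. Ebf1, a transcription factor of mural and fat precursor cells, stood at 795 and 471 CPM, against 202 and 140.4 CPM. Kcnk3, a potassium leak channel, stood at 282 and 224 CPM, against 91.4 and 55.3 CPM. With the filter at 10 effective counts, 13 of 26 markers were higher and 1 lower, and over all 8090 genes tested at that filter 9.81% were higher and 6.49% lower. Markers near 0 CPM in that class, such as Higd1b, could pass only through the pericyte-like cells, so these counts are a description. The class labelled pericytes did hold some of these genes. Mcam, an adhesion molecule of vessels, stood at 573 and 389 CPM, against 266 and 213 CPM, and did not pass the limit in NC. Heyl, a Notch target, stood at 176 and 91.4 CPM, against 117 and 57.4 CPM.

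The class labelled pericytes also held 69 HFD and 27 NC cells that met the same gene criteria. Their Acta2 level was 12139 and 13658 CPM, and Higd1b stood at 20.8 and 10.1 CPM. They had a median of 5 and 4 pericyte markers and of 13 smooth muscle markers in both libraries. Their median totals were 27156 and 22077 counts.

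Notch3 and Hes1 were the Notch genes that passed the test. Notch3 stood 2.93-fold (1.89 to 4.35) higher in HFD and 6.07-fold (3.87 to 9.27) higher in NC than in the class labelled pericytes. Hes1, a repressor that Notch induces, stood at 530.1 and 503 CPM, against 125 and 89.3 CPM in that class and 74.9 and 52.9 CPM in myofibroblasts. Nrarp, which feeds back on Notch signalling, stood at 72.0 and 197 CPM, against 3.25 and 2.27 CPM in the class labelled pericytes, and was not tested. Of 4 tested Notch genes, 2 were higher and 0 lower than in that class, and 14 of the 20 in the tables had a count in pericyte-like cells.

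Receptors and signals of the vessel wall were mixed. Ednra, the receptor for endothelin, stood at 377 CPM in HFD and 517 CPM in NC, against 109.8 and 101 CPM in myofibroblasts and 76.9 and 61.7 CPM in the class labelled pericytes. The other receptor, Ednrb, had 0 CPM in both libraries, against 149 and 113 CPM in myofibroblasts and 122 and 96.8 CPM in the class labelled pericytes. Among 8 tested vasoactive genes, 1 was higher and 3 lower than in the class labelled pericytes. The shares over all 2409 tested genes were 5.85% higher and 11.9% lower. Angpt1, the ligand with which mural cells steady the endothelium, stood at 487 and 174 CPM, against 59.9 and 51.5 CPM in the class labelled pericytes. At 2000 counts per cell, Angpt1 was found in 43.6% and 16.1% of pericyte-like cells and in 24.8% and 21.1% of the other fibroblasts. Epas1, a hypoxia-inducible factor, stood at 406 and 471 CPM, against 123 and 117 CPM in the class labelled pericytes. S1pr3, a sphingosine phosphate receptor, stood at 467 and 480.0 CPM, against 22.2 and 22.7 CPM, and was not tested against that class. Of 12 tested genes of endothelial and mural cross talk, 3 were higher and 0 lower than in the class labelled pericytes. Against myofibroblasts, 1 of 10 was higher and 3 lower.

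Further genes of the cGMP pathway differed more from myofibroblasts than from the class labelled pericytes in the 2 examples given first. Pde3a, which breaks down cyclic nucleotides, stood at 256 and 197 CPM in pericyte-like cells, against 179 and 177 CPM in the class labelled pericytes and 22.0 and 15.9 CPM in myofibroblasts. Prkg1, the kinase that cGMP activates, stood at 127 and 187 CPM, against 80.0 and 54.0 CPM in the class labelled pericytes and 41.7 and 36.4 CPM in myofibroblasts. Mrvi1, a substrate of that kinase in smooth muscle, had 0 CPM in both libraries, against 132 and 90.3 CPM in the class labelled pericytes. Among the 4 tested genes 0 were higher and 1 was lower than in that class. Against myofibroblasts 1 was tested, Pde1a, which was lower, and with the filter at 10 effective counts Pde3a and Prkg1 were the 2 of 8 that were higher.

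The genes with the highest ratios over the class labelled pericytes included Prex2, Marcks, F2r and Clec2d, beside Spp1, Lipg, Pcdh18, Ifitm1, Crim1 and Rgcc. Prex2, an activator of Rac, stood at 1023 and 909.7 CPM, against 74.1 and 61.0 CPM. Marcks, a membrane protein that binds actin, stood at 1501 and 1344 CPM, against 70.6 and 116 CPM. F2r, the thrombin receptor, stood at 666 and 631 CPM, against 46.5 and 68.3 CPM. Clec2d, a lectin-like membrane protein, stood at 723 and 672 CPM, against 56.5 and 65.3 CPM. Among the lower genes, Cav1, which forms caveolae, stood at 8.64 and 18.3 CPM, against 428 and 375 CPM. Cpe, a carboxypeptidase, stood at 0 and 22.9 CPM, against 677 and 498 CPM. Ramp1, a partner of the receptor for calcitonin gene-related peptide, stood at 23.0 and 0 CPM, against 411 and 287 CPM.

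Markers of immune, epithelial and mesothelial cells were at 0 in nearly all pericyte-like cells, while endothelial and fibroblast genes were mixed. Immune markers were at 0 in 30 of 31 HFD and in all 32 NC pericyte-like cells. This is not particular to them, since 461 of 490 HFD and 606 of 647 NC myofibroblasts had none either. The 18 endothelial genes in the tables summed to 645 CPM in HFD and 425 CPM in NC, against 260 and 248 CPM in myofibroblasts. Eng, the coreceptor endoglin, led them at 268 and 325 CPM, against 56.1 and 57.4 CPM, and was higher than in myofibroblasts. Among the 11 endothelial markers, which leave out Eng, the sums were 377 and 96.0 CPM, against 54.0 and 72.4 CPM in myofibroblasts. Cdh5, Cldn5, Egfl7 and Plvap, which mark endothelium, were at 0 in the pericyte-like cells of both libraries, while Tmem100 stood at 216 and 64.0 CPM and Esam at 138 and 9.14 CPM. A single HFD cell and a single NC cell had an epithelial marker, and only 1 NC cell had mesothelial markers. The 20 adventitial fibroblast genes summed to 7707 and 4759 CPM, against 6633 and 6395 CPM in myofibroblasts and 2084 and 2827 CPM in the class labelled pericytes. Among 8 tested adventitial genes, 1 was higher and 4 lower than in myofibroblasts, with median log2 ratios of −1.25 and −0.92. None of the 9 adventitial markers was found in 19 HFD and 20 NC pericyte-like cells, but single cells had up to 9 and 8 of them. Alveolar fibroblast genes were tested in the same way. Of 8 tested, 5 were higher and 0 lower than in myofibroblasts, with median log2 ratios of 3.03 and 2.23. Macf1 stood at 1699.8 and 1582 CPM, against 225 and 235 CPM, and G0s2, a lipase inhibitor, at 1132 and 718 CPM, against 128 and 178 CPM. The other fibroblasts had more of this list. Its 20 genes summed to 9153 and 6386 CPM in pericyte-like cells, against 19788 and 14584 CPM in the other fibroblasts. In pericyte-like cells of the myofibroblast class G0s2 stood at 867 and 776 CPM, against 1325 and 676 CPM in the others. Doublet scores of pericyte-like cells had a median percentile of 60.8 and 56.9 among kept cells, against 10.9 and 9.86 for myofibroblasts and 55.6 and 52.8 for the other fibroblasts. The part of other cells' RNA in these genes was not tested.

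The third comparison asked how the pericyte-like cells of HFD differ from those of NC. With 31 and 32 cells in 1 library each, a gene was called at 1.5-fold with a counting interval that excludes 1. Of 379 tested genes, 27 were higher (7.12%) and 40 lower (10.6%) in HFD, and the median log2 ratio was 0.07. Leaving out the 4 HFD and 2 NC cells with over 20000 counts, a choice made after seeing the data, left 217 tested genes with 23 higher and 34 lower. Of those, 7 of the 27 higher and 20 of the 40 lower genes were shared. A gene could be shared only if it was still among the 217 tested. How many of the 27 and 40 genes were still tested is not given here. For some genes below, ratios of other cell groups are also given, and the differences between cell groups were not tested.

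Of 18 tested heat shock and immediate early genes, 0 were higher and 6 lower in HFD, with a median log2 ratio of −0.34. Over all 379 tested genes, 7.12% were higher and 10.6% lower. The 6 lower genes of the list were Hspa1a, Hspa1b, Hspb1, Dnajb1, Fosb and Ier3, and the other 12 did not pass. Among those, Fos had a ratio of 0.707 (0.601 to 0.831) and Egr1 of 1.21 (0.998 to 1.46). Hspa1a, an inducible heat shock protein, stood at 818 CPM in HFD and 3378 CPM in NC pericyte-like cells, a ratio of 0.242 (0.177 to 0.327), against ratios of 0.586 in myofibroblasts and 0.323 in the class labelled pericytes. Hspa1b stood at 524 and 1824 CPM, a ratio of 0.287 (0.192 to 0.422), against 0.713 and 0.264. Hsp90aa1 stood at 507 and 1303 CPM, a ratio of 0.389 (0.254 to 0.588), against 0.544 and 0.357. Hspa1a and Hspa1b are near-identical copies, so how their reads were divided is uncertain. In both other classes these 3 genes also had ratios below 1. Dnaja1, a cochaperone, stood at 279 and 923 CPM, a ratio of 0.303 (0.171 to 0.517). Hspb1 stood at 864 and 1874 CPM, a ratio of 0.461 (0.331 to 0.638). At 2000 counts per cell, Dnaja1 was in 27.3% of HFD and 61.2% of NC cells of the class labelled pericytes, and Hspb1 in 81.1% and 93.0%. In myofibroblasts Dnaja1 was in 26.4% and 35.2%, and Hspb1 in 46.1% and 56.2%. Fosb, an immediate early factor, stood at 1501 and 3031 CPM, a ratio of 0.495 (0.385 to 0.635), against 0.828 and 0.848. Such genes are known to respond to tissue dissociation, and handling cannot be told apart from diet with 1 library each.

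Klf2, a transcription factor known from vessels under flow, stood at 372 CPM in HFD and 1279.9 CPM in NC, a ratio of 0.290 (0.178 to 0.460), against 1.19 in myofibroblasts and 1.14 in the class labelled pericytes. It was detected in 14 of 31 HFD and 24 of 32 NC cells. Tra2a, a splicing factor, stood at 196 and 581 CPM, a ratio of 0.337 (0.166 to 0.651), against 1.07 and 0.812. Thbs1 and Ccn2, matrix proteins that signal to cells, were also called lower, with ratios of 0.477 (0.366 to 0.619) and 0.228 (0.113 to 0.432). In NC, 52.3% of the Thbs1 counts and 31.0% of the Ccn2 counts lay in 1 cell. Thbs1 had a ratio of 0.644 in myofibroblasts and 0.472 in the class labelled pericytes. Cxcl1, a neutrophil chemokine, stood at 118 and 983 CPM, a ratio of 0.120 (0.0507 to 0.250), and 46.0% of its NC counts lay in 1 cell.

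**Figure D5:**
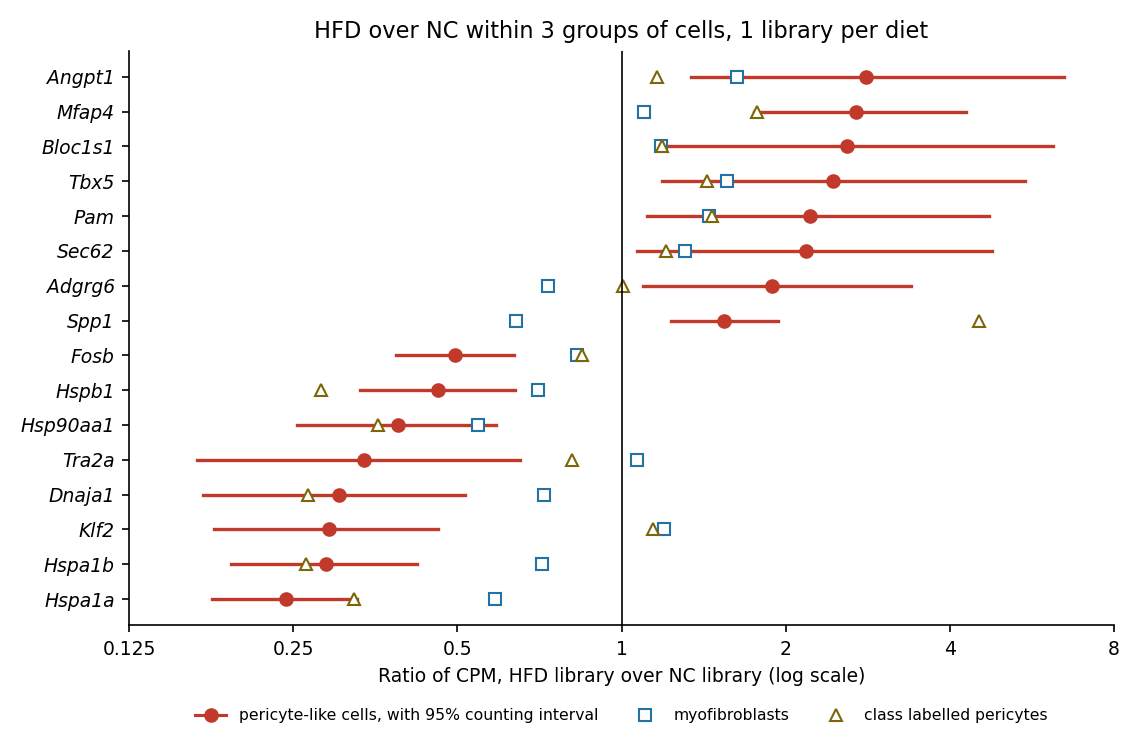
HFD over NC ratio of CPM (log scale) of the named genes in pericyte-like cells (filled points, lines are 95% counting intervals), in myofibroblasts (squares) and in the class labelled pericytes (triangles), 1 library per diet. Hspa1a is lowest, at 0.242, and Angpt1 highest, at 2.80.

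Among higher genes, Angpt1 had a ratio of 2.80 (1.34 to 6.47), from the levels of 487 CPM in HFD and 174 CPM in NC given above, against 1.63 in myofibroblasts and 1.16 in the class labelled pericytes. Mfap4, a microfibril protein of alveolar fibroblasts, stood at 1343 and 498 CPM, a ratio of 2.69 (1.75 to 4.29), against 1.10 and 1.77, and 2.21 in the other fibroblasts. In pericyte-like cells of the myofibroblast class it stood at 82.0 and 0 CPM, so its level lay mostly outside that class. Tbx5, a mesenchymal transcription factor of the lung, stood at 458 and 187 CPM, a ratio of 2.44 (1.18 to 5.50). Adgrg6, an adhesion G protein-coupled receptor, stood at 666 and 352 CPM, a ratio of 1.89 (1.09 to 3.39), against 0.733 and 1.01. Spp1 had a ratio of 1.54 (1.23 to 1.94), but fewer HFD cells carried it, as given above. Pam, Sec62 and Bloc1s1, the rest of the 8 named higher genes, had ratios of 2.21, 2.18 and 2.59, each with an interval above 1. Each of the 8 named higher genes lost its call under at least 1 alternative choice of cells, and for Mfap4 that was the choice of the myofibroblast class alone.

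Genes of the duct and of smooth muscle were called through a few cells. Hhip had a ratio of 55.5, from 5 HFD cells and 1 NC cell. Aspn, a small proteoglycan, stood at 576 and 0 CPM, at least 42.0-fold higher in HFD, from 8 HFD cells. Both genes were found together in 4 HFD cells, and 2 of these were among the 3 with 3 or 4 of the choosing genes. Acta2 and Tagln were called lower in HFD, with ratios of 0.184 (0.0840 to 0.366) and 0.0927 (0.0363 to 0.201). In the cells with 5 to 7 genes Acta2 stood at 135 and 45.2 CPM and Tagln at 103 and 181 CPM, so for Acta2 the direction turned round without the other cells. Of 7 tested pericyte markers, 3 were higher in HFD (Ebf1, Higd1b and Tbx5) and 0 lower, with a median log2 ratio of 0.56. Over all 379 tested genes, 7.12% were higher and 10.6% lower. Higd1b had a ratio of 1.53 (1.02 to 2.31) and Ebf1 of 1.69 (1.04 to 2.80).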

How the data were processed

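Values deposited by the authors are, as found from the values, log2 of CPM plus a pseudocount of 1, for 21014 genes. The deposited total per cell is an estimated count. The deposited mitochondrial and ribosomal columns are in percent, per the file headers. STAR and mm39 were used, per the submitters' processing notes, with versions not given in the sources used here. Counts were recovered from the deposited values and totals. Within 0.01, 98.8% of nonzero HFD and 98.96% of NC values were whole, and rounding followed. Symbols were found for 20180 identifiers (96.03%), of which 36 share one and are shown by identifier.

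Cells with under 500 genes or over 10% mitochondrial counts were dropped, which left 6089 of 6971 HFD and 8140 of 9015 NC. Classes come from the deposited annotation. Scrublet (scanpy 1.11.5) marked 0 cells, so none was removed, and whether doublets were removed before deposit is not known. Counts were summed per library and cell group, and CPM ratios were taken within each library. Exact conditional intervals at 95% used effective counts, which are counts over the variance factor found from rarely detected genes, 4.85 for HFD and 3.98 for NC. Shares carry Clopper-Pearson intervals. All cover counting error only. A tested gene reached 30 effective counts and 50 CPM in 1 of the 2 groups, in each library for cell groups. Genes of a list that passed this filter could do so through the group where they are high. A level of 0 was set at 3 counts per library for ratios. The code was tested on simulated data. edgeR 4.0.16 gave TMM factors and no test.

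Named genes were called and had no cell with over 25% of the counts of the higher group. They were the 12 highest and the 12 lowest per cell class, by the smaller log2 ratio of the 2 libraries, and 8 per direction between diets, by the interval bound nearest to 1. Up to 4 genes of each of 27 lists, by level in the pericyte-like cells, were also named. Other named genes were chosen after their values were seen. The cells and the lists were chosen with earlier results of these data known. Alternatives changed the choosing rule, cell filters, scaling, thinning, doublet scores and the filter on low counts. Promoters came from RefSeq (GRCm38.p6), a build other than that of the tables.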

Additional observations from a re-analysis of the deposited data

How the results depend on the processing

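No paired analysis was possible because each diet had 1 library. Under 9 other rules, filters and denominators for the share of cells, HFD shares lay between 0.401% and 0.624%, and NC shares between 0.189%, with cells thinned to 5000 counts, and 0.479%. Thinning gave the one HFD over NC ratio of shares whose interval excludes 1, at 2.12 (1.01 to 4.71). Genes higher than in myofibroblasts numbered 62 of 2378 tested under TMM (2.61%) and 443 of 6278 with a filter of 10 effective counts (7.06%). Cells with 1000 genes and at most 5% mitochondrial counts gave 59 of 1600 (3.69%). Cells with 1500 genes gave 6 of 251 (2.39%). Genes lower numbered 352 by the mean of CPM per cell (14.8%), 456 under TMM (19.2%) and 410 with only myofibroblast-class members (17.3%). They numbered 106 (6.6%) and 14 (5.58%) in the stricter cells, 426 with the lower filter (6.79%) and 295 without members over 20000 counts (12.4%). Against the class labelled pericytes, the higher genes numbered 43 under TMM (1.78%) and 77 under median of ratios (3.20%). They numbered 86 in the 1000-gene cells (4.49%) and 794 with the lower filter (9.81%). The lower genes numbered 445 by the mean of CPM (18.5%), 749 under TMM (31.1%) and 445 under median of ratios (18.5%). They numbered 479 with only myofibroblast-class members (19.9%), 174 in the 1000-gene cells (9.09%) and 525 with the lower filter (6.49%). Between the diets, higher genes numbered 49 of 379 tested under median of ratios (12.9%) and 78 of 1431 with the lower filter (5.45%). They numbered 15 of 229 without myofibroblast-class members (6.55%) and 17 of 102 with only those (16.7%). With at least 5 of 7 genes, 50 of 326 were higher (15.3%). That alternative was added after seeing the data, like the limit of 20000. Lower genes numbered 18 of 102 with only myofibroblast-class members (17.6%) and 83 of 1431 with the lower filter (5.80%). The pericyte-like cells had fewer summed counts than either class. A gene thus needed a higher CPM to pass the filter on counts through them than through a class. How far this sets the numbers of higher and lower genes was not tested, nor were other causes. Of the named genes, Penk alone changed direction, to a log2 ratio over myofibroblasts of 1.23 in the 1500-gene cells, where it had 0 counts in HFD and the floor of 3 counts was used. Against the cell classes Penk alone lost its call, there and with only myofibroblast-class members. Between the diets, 9 to 16 of the 16 named genes kept theirs. Hspa1a, Hspa1b, Klf2, Hsp90aa1 and Fosb kept theirs under all. The number of cells, with 31 and 32 members, limits the precision.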

Other observations

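Of 6 tested chemokine and cytokine genes, 0 were higher and 2 lower than in myofibroblasts. With the filter at 10 effective counts 16 were tested, and Cxcl14, Kitl and Vcam1 were higher and 2 lower. Kitl, the ligand of the receptor Kit, stood at 323 CPM in HFD and 183 CPM in NC, against 6.46 and 14.4 CPM in myofibroblasts and 18.2 and 20.6 CPM in the class labelled pericytes. Cxcl14, a chemokine, stood at 639.6 and 457 CPM, against 18.5 and 33.9 CPM in myofibroblasts, 71.6 and 254 CPM in the class labelled pericytes and 624.5 and 795 CPM in the other fibroblasts. Adcy8, an adenylate cyclase chosen after its values were seen, stood at 372 and 329 CPM, against 0 CPM in myofibroblasts of both libraries. Of the Adcy8 counts outside the class labelled pericytes, 99.2% in HFD and 73.5% in NC lay in these cells. For Higd1b these shares were 90.7% and 86.9%, for Vtn 87.9% and 82.7%, and for Notch3 60.1% and 47.9%, although the cells held 0.601% and 0.334% of all counts there.

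Genes of cell division and of sterol synthesis mostly had too few counts. Of 14 proliferation genes in the tables, 5 had a count in pericyte-like cells and 1 was tested. Hmgcs1, an early enzyme of cholesterol synthesis, stood at 95.1 and 128 CPM, against 17.3 and 31.2 CPM in myofibroblasts, and 0 of 22 genes of that pathway in the tables passed the filter. With the filter at 10 effective counts, 4 of 11 were higher and 0 lower than in myofibroblasts.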
